A study of Mus musculus with 32 samples.

Results

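Bile acids are made from cholesterol in hepatocytes, secreted into bile, taken up again in the ileum and returned to the liver by portal blood. The classic route starts with Cyp7a1, the rate-limiting 7 alpha-hydroxylase, and Cyp8b1 adds the 12 alpha-hydroxyl group that decides between cholic acid and the muricholic acids. An alternative route starts with the sterol 27-hydroxylase Cyp27a1 and continues with Cyp7b1, and Cyp39a1 hydroxylates 24-hydroxycholesterol. Returning bile acids activate the nuclear receptor FXR (Nr1h4), which induces the corepressor SHP (Nr0b2), and SHP lowers transcription of Cyp7a1 and Cyp8b1. Baat joins bile acids to taurine or glycine, Slc10a1 (NTCP) carries them from blood into the hepatocyte, and Abcb11 (BSEP) exports them into the bile canaliculus. These 10 genes, chosen by name but with earlier results of these data known, were followed among the 47643 genes counted. All 10 were matched to a symbol.

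The RNA came from epididymal white fat (eWAT) and liver of male C57BL/6 mice (C57BL/6J in the study's methods) aged 10 weeks. For 7 days the mice drank water with corticosterone (Cort), the main glucocorticoid of rodents, dissolved in ethanol, or with the ethanol vehicle (Veh), and ate a normal protein diet (NPD, 20% of energy from protein) or a high protein diet (HPD, 60%, with less carbohydrate). All groups were therefore exposed to ethanol and fasted for a few hours before tissue was taken. Each combination of tissue, drug and diet had 4 libraries, and in liver Veh HPD kept 3, as explained with the results.

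Liver libraries held 8933307 to 17447524 counted reads, and levels are given in CPM, counts per 1000000 of the TMM-scaled total of the genes tested. Summed hepatocyte markers (9 genes) lay between 75900 and 249000 CPM in 15 liver libraries, while 6 adipocyte markers summed to 4.01 to 18.4 CPM. In eWAT the same adipocyte markers summed to 14700 to 38300 CPM. The library Veh HPD replicate 4 stood apart on the second principal component of the 16 liver libraries, with a score of -93.5 where the others lay between -15.1 and 30.9. The study's own plot also marks it as removed, so liver results use the other 15 libraries unless stated otherwise. In that library 8 of the 10 genes were below all 7 other vehicle libraries, among them Cyp8b1 (40.6 CPM, the others 192 to 468) and Slc10a1 (48.1 CPM, the others 220 to 415), and Cyp39a1 was above all of them (11.2 CPM, the others 2.65 to 6.8). These values were scaled over all 16 libraries. Its summed hepatocyte markers were 41300 CPM, the lowest of the 16, while its markers of cholangiocytes (137 CPM, the others at most 98.8), Kupffer cells (341 CPM, at most 240) and exocrine pancreas (159 CPM, at most 151) were the highest. In bulk liver fewer cells of a type and less RNA per cell cannot be told apart.

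RefSeq promoter sequences (250 bases before to 50 bases after the transcript start, build GRCm38.p6) were found for 6 of the 10 genes, and Cyp7a1, Cyp7b1, Cyp39a1 and Baat were not among them. They were searched on both strands for TCAAGG, the core bound by LRH-1 (Nr5a2), AGGTCA, the nuclear receptor hexamer, CAAAGTCCA, a site bound by HNF4A, and AGAACA, the glucocorticoid receptor hexamer. The promoters of Cyp8b1, Nr0b2 and Nr1h4 are shown because an enzyme, the corepressor and the receptor of the feedback loop can be read side by side, with matches in capitals. The Cyp8b1 window is chr9:121916256-121916555 on the minus strand, the Nr0b2 window chr4:133553126-133553425 on the plus strand, and the Nr1h4 window chr10:89506609-89506908 on the minus strand, which is a start inside the annotated gene.
Cyp8b1: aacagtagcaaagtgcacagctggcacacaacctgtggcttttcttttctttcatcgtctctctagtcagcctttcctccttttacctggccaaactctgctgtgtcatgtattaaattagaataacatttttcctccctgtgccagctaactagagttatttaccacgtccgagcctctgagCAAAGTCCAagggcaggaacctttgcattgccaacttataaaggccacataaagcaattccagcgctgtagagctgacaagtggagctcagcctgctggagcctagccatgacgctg
Nr0b2: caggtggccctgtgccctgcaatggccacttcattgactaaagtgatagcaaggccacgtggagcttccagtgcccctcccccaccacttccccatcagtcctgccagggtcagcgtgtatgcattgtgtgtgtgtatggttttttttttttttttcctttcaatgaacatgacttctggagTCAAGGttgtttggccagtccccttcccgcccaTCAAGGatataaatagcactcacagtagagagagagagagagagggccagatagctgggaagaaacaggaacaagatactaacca
Nr1h4: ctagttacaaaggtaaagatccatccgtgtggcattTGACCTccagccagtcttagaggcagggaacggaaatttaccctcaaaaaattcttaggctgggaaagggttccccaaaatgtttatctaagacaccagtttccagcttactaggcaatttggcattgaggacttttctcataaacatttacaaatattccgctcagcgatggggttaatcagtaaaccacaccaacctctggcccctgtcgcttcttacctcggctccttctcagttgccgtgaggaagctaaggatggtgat
The Cyp8b1 window held 1 match to CAAAGTCCA, a motif present in 0.475% of 32851 mouse promoters of this length. The Nr0b2 window held 2 matches to TCAAGG, which 14.4% of promoters contain at least once. The Nr1h4 window held 1 match to AGGTCA (16.3% of promoters), on the opposite strand. Of the windows not shown, that of Abcb11 held 1 match to AGGTCA and 1 to AGAACA (19% of promoters), 1 of the 2 windows of Slc10a1 held an AGGTCA, and that of Cyp27a1 held none of the 4 motifs. No matches overlapped, and a match describes letters only.

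Cort was compared with Veh within each diet. On the NPD, Cyp8b1 and Cyp39a1 rose and none of the 10 genes fell. On the HPD, Cyp8b1, Cyp39a1, Slc10a1 and Nr1h4 rose and again none fell. Each comparison used edgeR's quasi-likelihood test over 12391 genes, with a Benjamini-Hochberg adjusted p under 0.05 taken as a change. The 2 genes called on the NPD stand beside 12.6% of all genes tested, and 6.84% called higher. The 4 called on the HPD stand beside 9.89% of all genes, and 4.75% called higher. The median log2 fold change of the 10 genes was 0.15 on the NPD and 0.65 on the HPD, where the medians of all genes were -0.01 and 0.00. Cort and Veh libraries did not overlap for 4 of the 10 genes on the NPD (18.5% of all genes) and for 7 on the HPD (21.2%). At an unadjusted p under 0.05 the counts were 4 and 7 of 10, beside 26.7% and 24.3% of all genes.

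**Figure D1:**
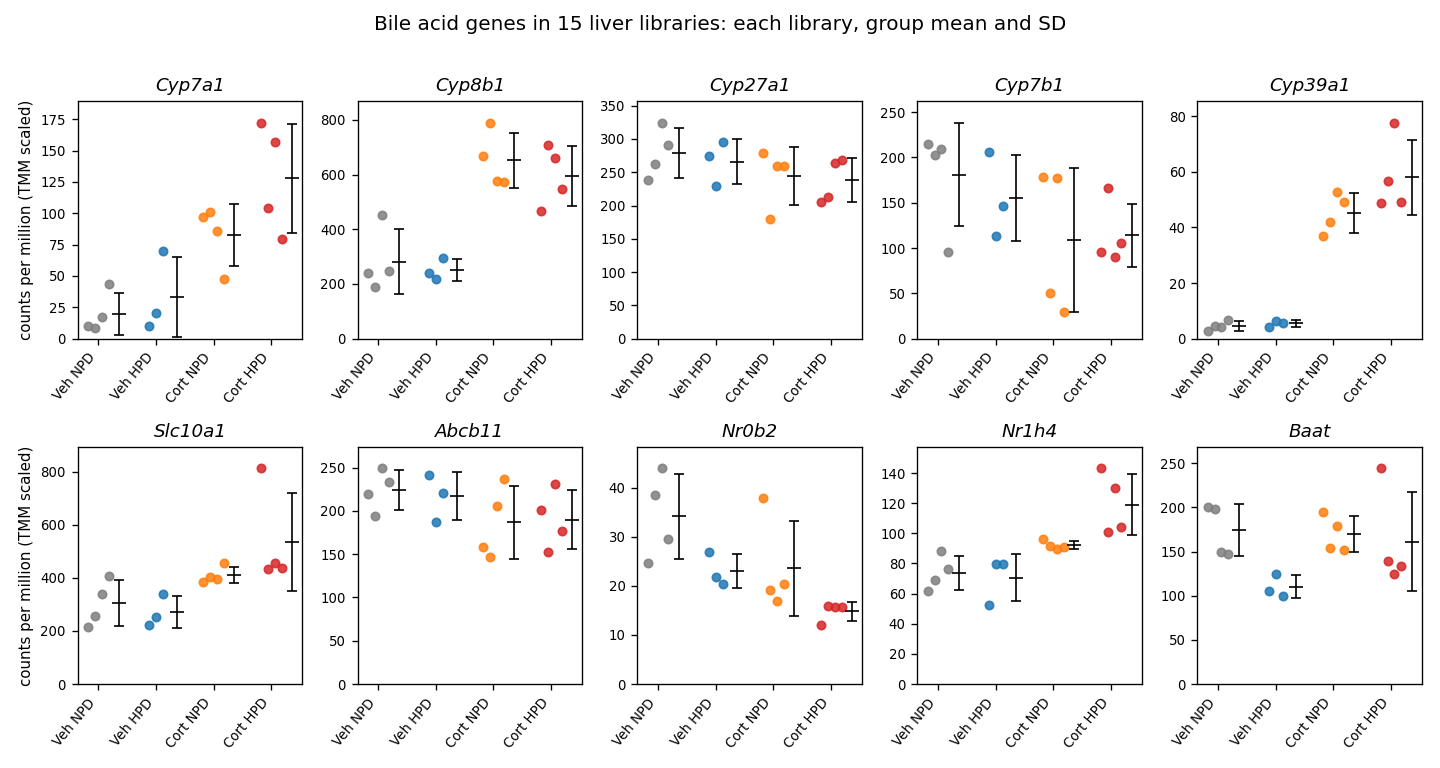
Level of each of the 10 genes (vertical axis, CPM after TMM scaling, from 0) in every liver library (points), by drug and diet, with the group mean and SD in black (n = 4, Veh HPD n = 3). Cyp39a1 lies at 2.61 to 6.68 CPM in all Veh libraries and at 37.0 to 77.6 CPM in all Cort libraries, while the libraries of the 4 groups overlap for Cyp27a1 and Abcb11.

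**Figure D2:**
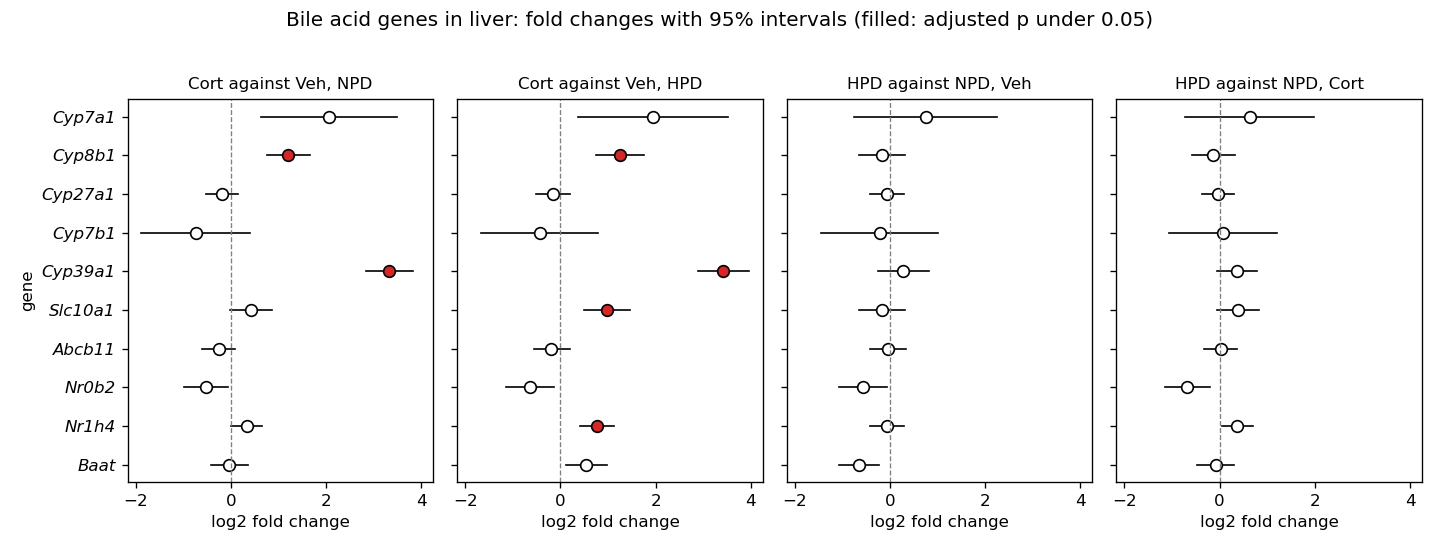
Log2 fold changes of the 10 genes in liver with 95% intervals in 4 comparisons, where a filled point has an adjusted p under 0.05. The filled points are Cyp8b1 and Cyp39a1 for Cort on the NPD, and these genes with Slc10a1 and Nr1h4 for Cort on the HPD, and no point is filled for the diets.

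Among the enzymes, Cyp39a1 (chr17:43667425-43751431, plus strand) differed most. Its levels were 2.61, 4.57, 4.16 and 6.68 CPM in Veh NPD and 37.0, 41.8, 52.8 and 49.0 CPM in Cort NPD. On the HPD they were 4.24, 6.48 and 5.68 CPM in Veh and 48.7, 56.8, 77.6 and 49.3 CPM in Cort. Every Cort library was therefore above every Veh library, with counts of 33 to 84 reads in Veh and 481 to 1014 reads in Cort. The log2 fold change was 3.33 ± 0.24 (SE, n = 4 and 4, adjusted p = 4.6e-09 from edgeR) on the NPD, a 10-fold rise. On the HPD it was 3.42 ± 0.26 (n = 3 and 4, adjusted p = 1.7e-08 from edgeR), 10.7-fold. By p-value Cyp39a1 ranked 5 of 12391 genes on both diets. The annotated Gm25783 overlaps it on the same strand, so reads of the pair could have been split in counting.

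Cyp8b1 (chr9:121914356-121916305, minus strand) measured 240, 188, 454 and 246 CPM in Veh NPD and 667, 789, 578 and 573 CPM in Cort NPD. On the HPD it measured 240, 218 and 294 CPM in Veh and 468, 710, 660 and 547 CPM in Cort. Veh NPD replicate 3 was the highest Veh library, and it still lay below the lowest Cort library. The rise was 1.21 ± 0.22 on the log2 scale (2.31-fold, adjusted p = 7.6e-04 from edgeR) on the NPD and 1.25 ± 0.24 (2.38-fold, adjusted p = 0.0019 from edgeR) on the HPD. With the library set aside put back, the NPD value was the same 1.21 but its SE was 0.43 and the call was lost (adjusted p = 0.095 from edgeR).

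Cyp7a1 (chr4:6265612-6275633, minus strand) had the largest coefficient of variation of the 10 genes among vehicle mice (83.4% on the NPD and 95.3% on the HPD). It measured 10.1, 8.18, 16.9 and 43.8 CPM in Veh NPD and 97.4, 101, 85.5 and 47.4 CPM in Cort NPD. On the HPD the levels were 9.93, 20.6 and 69.5 CPM in Veh and 172, 104, 157 and 79.8 CPM in Cort. Within each diet the Cort libraries lay above the Veh libraries, but by little at the edge, since Veh NPD replicate 4 and Veh HPD replicate 3 were high. The log2 differences of 2.06 ± 0.66 (95% interval 0.63 to 3.50, adjusted p = 0.063 from edgeR) on the NPD and 1.94 ± 0.71 (0.37 to 3.51, adjusted p = 0.12 from edgeR) on the HPD did not pass. The call depended on the tool and on single libraries. DESeq2 gave adjusted p = 0.010 and 0.035, and limma voom 0.036 and 0.042. Without Veh NPD replicate 4 the NPD difference was 2.81 (adjusted p = 0.019 from edgeR), and without Veh HPD replicate 3 the HPD difference was 3.08 (adjusted p = 0.032 from edgeR), against 1.49 without Veh HPD replicate 1.

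Some clock transcripts varied together with Cyp7a1 among the vehicle mice. Dbp, a clock output activator, measured 7.03, 15.3, 30.3 and 43.3 CPM in Veh NPD and 20.1, 45.9 and 125 CPM in Veh HPD. Arntl, the core clock activator, ran the other way, at 10.5, 7.54, 5.28 and 2.45 CPM in Veh NPD and 9.49, 5.36 and 0.878 CPM in Veh HPD. The libraries highest in Cyp7a1 within each diet were thus also highest in Dbp and lowest in Arntl. Of the 11 clock genes, 3 were highest (Dbp, Tef and Bhlhe41) and 2 lowest (Arntl and Npas2) in that library on both diets, and the remaining 6, Nr1d1, Nr1d2, Ciart and the Per genes, were neither on both diets. With so few libraries a group such an order can arise by chance, and its share over all genes was not determined. Taken over both diets, Cort libraries lay within the Veh range for Dbp (18.1 to 37.0 CPM) and for Arntl (2.08 to 5.35 CPM). On the NPD alone, Arntl in Cort replicate 1 (2.08 CPM) lay below the lowest Veh library (2.45 CPM). The log2 difference of Arntl there was -1.18 ± 0.53 and did not pass (adjusted p = 0.17 from edgeR). With the drug, 3 of the 11 clock genes rose on the NPD (Tef, Per2 and Per3), beside 12.6% of all genes called. On the HPD 1 fell (Per1), beside 9.89% of all genes called. The part of clock phase in the Cyp7a1 difference was not tested.

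The enzymes of the alternative route did not pass in either diet. Cyp27a1 (chr1:74713574-74737892, plus strand) stayed between 180 and 324 CPM in all 15 libraries, with log2 differences of -0.19 ± 0.16 on the NPD (95% interval -0.52 to 0.14) and -0.16 ± 0.17 on the HPD (-0.52 to 0.19). Cyp7b1 (chr3:18071950-18243338, minus strand) measured 215, 203, 209 and 95.6 CPM in Veh NPD and 178, 50.6, 177 and 29.5 CPM in Cort NPD, so that Cort replicates 2 and 4 were low and Cort replicates 1 and 3 were near the vehicle level. On the HPD it measured 206, 113 and 146 CPM in Veh and 95.7, 166, 90.2 and 106 CPM in Cort. The log2 differences of -0.73 ± 0.52 (adjusted p = 0.42 from edgeR) and -0.44 ± 0.56 (adjusted p = 0.68 from edgeR) carry intervals of -1.88 to 0.41 and -1.66 to 0.78, which leave a large fall undecided on both diets. Gm23686 overlaps Cyp7b1 on the same strand.

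The conjugating enzyme Baat (chr4:49489422-49506557, minus strand) measured 200, 198, 149 and 147 CPM in Veh NPD and 195, 154, 179 and 152 CPM in Cort NPD. On the HPD it measured 105, 125 and 100 CPM in Veh and 244, 139, 125 and 134 CPM in Cort. The HPD groups touched without crossing, and the log2 difference of 0.54 ± 0.21 did not pass (adjusted p = 0.099 from edgeR). It was 0.27 without Cort HPD replicate 1.

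Of the transporters, Slc10a1 (chr12:80953183-80968705, minus strand) rose with Cort on the HPD. Levels there were 223, 252 and 339 CPM in Veh and 812, 434, 455 and 436 CPM in Cort, where Cort replicate 1 was far above the other Cort libraries, which themselves lay above all Veh libraries. The log2 fold change was 0.98 ± 0.24 (1.97-fold, adjusted p = 0.010 from edgeR), and 0.70 and still called without Cort HPD replicate 1. On the NPD the levels were 216, 256, 340 and 408 CPM in Veh and 386, 405, 394 and 455 CPM in Cort, and the difference of 0.43 ± 0.21 did not pass (adjusted p = 0.21 from edgeR). Of 9 alternative fits 1 called Slc10a1 higher on the NPD, limma voom with sample quality weights. The rise on the HPD was no longer called without Veh HPD replicate 1 (0.85, adjusted p = 0.075 from edgeR) or with the library set aside put back (1.32, adjusted p = 0.058 from edgeR).

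Abcb11 (chr2:69238282-69342616, minus strand), the canalicular exporter, stayed between 147 and 249 CPM in all 15 libraries. Its log2 difference was -0.26 ± 0.17 on the NPD (95% interval -0.61 to 0.09) and -0.19 ± 0.18 on the HPD (-0.56 to 0.19). Gm13613 and Gm13614 overlap Abcb11 on the opposite strand, and whether counting used strand is not given in the sources used here.

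Of the feedback regulators, Nr1h4 (chr10:89454234-89533585, minus strand) rose on the HPD, from 52.4, 79.5 and 79.7 CPM in Veh to 143, 101, 130 and 104 CPM in Cort. The log2 fold change was 0.76 ± 0.17 (1.69-fold, adjusted p = 0.0070 from edgeR), and 0.58 with adjusted p = 0.069 from edgeR without Veh HPD replicate 1. On the NPD it measured 61.6, 69.1, 88.0 and 76.1 CPM in Veh and 96.5, 91.7, 89.9 and 91.1 CPM in Cort. These groups also did not overlap, and the difference of 0.33 ± 0.16 did not pass (adjusted p = 0.19 from edgeR).

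Nr0b2 (chr4:133553376-133556536, plus strand) was the only one of the 10 whose Cort libraries on the HPD were all below the Veh libraries. It measured 24.7, 38.5, 43.9 and 29.6 CPM in Veh NPD, 26.9, 21.8 and 20.4 CPM in Veh HPD, 37.9, 19.2, 17.0 and 20.4 CPM in Cort NPD, and 12, 15.9, 15.6 and 15.7 CPM in Cort HPD. All 4 Cort HPD libraries were thus below the other 11. The separation depended on the library set aside. Scaled over all 16 libraries, Veh HPD replicate 4 measured 11.9 CPM, below the Cort HPD libraries at 12.4 to 16.4 CPM. Cort gave a log2 difference of -0.53 ± 0.22 on the NPD (adjusted p = 0.13 from edgeR) and -0.64 ± 0.24 on the HPD (adjusted p = 0.10 from edgeR), and neither passed. With the library set aside put back, the HPD difference was -0.44 (adjusted p = 0.32 from edgeR) and the groups overlapped. In a fit of the HPD groups alone, without that library, the HPD difference passed (-0.65, adjusted p = 0.047 from edgeR). Without Cort NPD replicate 1, whose level was like that of Veh, the NPD difference was -0.85 and passed (adjusted p = 0.0059 from edgeR), and so did the HPD difference of -0.64 (adjusted p = 0.037 from edgeR), since the libraries share 1 estimate of the spread.

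The scaling bears on the HPD comparison. Cort HPD replicate 1 had the lowest TMM factor of the 15 libraries (0.754) and the highest summed hepatocyte markers (249000 CPM). Hepatocyte markers summed to 145000 to 249000 CPM in Cort HPD against 75900 to 86700 CPM in Veh HPD, with 2 of 9 called higher, and to 99900 to 124000 CPM in Cort NPD against 84200 to 118000 CPM in Veh NPD, with 1 called higher and 2 lower. Kupffer cell markers, all 6 detected, summed to 61.3 to 83.3 CPM in Cort NPD against 159 to 236 CPM in Veh NPD, with 5 called lower. On the HPD they summed to 91.5 to 163 CPM in Cort against 178 to 182 CPM in Veh, with 3 called lower. Red blood cell genes summed to 5270 to 7620 CPM in Cort HPD against 1910 to 3470 CPM in Veh HPD, with 2 of 5 called higher and 1 lower, and liver endothelium genes to 118 to 130 CPM against 160 to 167 CPM, with 2 of 6 called lower. On the NPD liver endothelium genes went the other way, at 156 to 227 CPM in Cort against 137 to 173 CPM in Veh, with 1 called higher. Stellate cell genes, with 2 of 6 called lower on the HPD and 1 on the NPD, overlapped between the groups. Cholangiocyte genes also overlapped, with 1 of 6 tested called higher on each diet. Exocrine pancreas genes summed to 17.4 to 21.9 CPM in Cort NPD against 43.1 to 74.5 CPM in Veh NPD, and to 17.2 to 24.4 CPM against 33 to 148 CPM on the HPD, with 1 of 4 tested called lower on each diet. Lymphocyte genes summed to 1.82 to 2.85 CPM against 4.67 to 8.48 CPM on the NPD and to 1.53 to 3.52 CPM against 5.53 to 15.5 CPM on the HPD, with 1 of 2 tested called lower on each. The marker calls stand beside 12.6% of all genes called on the NPD and 9.89% on the HPD. The part of these marker differences in the results was not tested. With library totals alone the median of all genes on the HPD shifted to -0.24 and the share of calls that were higher went from 48% to 17.8%. The same 4 genes were still called higher on that scale, and Nr0b2 was called lower (-0.87, adjusted p = 0.032 from edgeR).

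**Figure D3:**
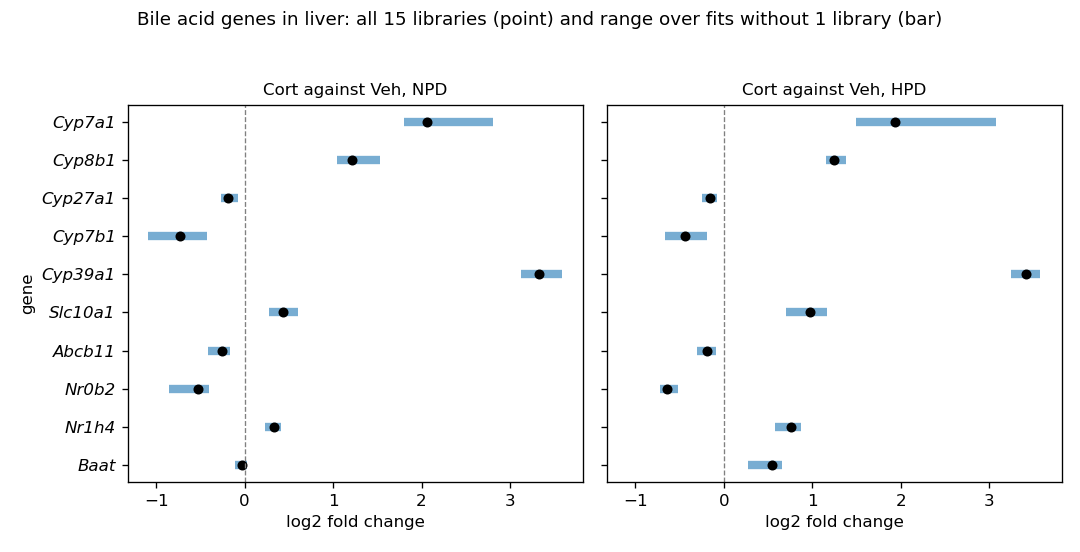
Log2 fold change of Cort against Veh (horizontal axis) on each diet for the 10 genes, from all 15 liver libraries (point) and over the 15 fits that each left out 1 library (bar). Cyp39a1 spans 3.12 to 3.59 on the NPD and Cyp8b1 1.04 to 1.53, while Cyp7a1 spans 1.80 to 2.81 on the NPD and 1.49 to 3.08 on the HPD.

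The diets were compared within Veh and within Cort. None of the 10 genes passed in either (0 of 10 under Veh, where 0.169% of all genes were called, and 0 of 10 under Cort, where 5.88% were), and DESeq2 and limma voom also called 0 in both. Under Veh, Baat and Nr0b2 had an unadjusted p under 0.05 (2 of 10, beside 9.4% of all genes). Baat had a log2 difference of -0.66 ± 0.21 (adjusted p = 0.25 from edgeR), and all 3 Veh HPD libraries were below the 4 Veh NPD libraries, a lack of overlap seen for 9.47% of all genes. Nr0b2 differed by -0.57 ± 0.24 (adjusted p = 0.46 from edgeR), with overlapping libraries. Under Cort the 2 genes with an unadjusted p under 0.05 were Nr0b2, at -0.68 ± 0.23 (adjusted p = 0.081 from edgeR), and Nr1h4, at 0.37 ± 0.16 (adjusted p = 0.18 from edgeR), and for both the libraries of the diets did not overlap. Of all genes 21.3% had such a p and 13.3% did not overlap, so 2 of 10 is near the background. The Nr0b2 difference under Cort was -0.35 without Cort NPD replicate 1, and with library totals alone it was called (-0.82, adjusted p = 0.043 from edgeR).

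Whether diet changed the effect of Cort was tested with the interaction term. No member passed (0 of 10, with 0.113% of all genes called, 0 at an unadjusted p under 0.05, and 0 by DESeq2 and by limma voom). The calls of Slc10a1 and Nr1h4 on the HPD only are therefore not shown to differ from the NPD. The interaction of Slc10a1 was 0.55 ± 0.32 (95% interval -0.10 to 1.21, adjusted p = 0.50 from edgeR) and that of Nr1h4 0.44 ± 0.23 (-0.05 to 0.92, adjusted p = 0.47 from edgeR). Baat had 0.57 ± 0.28 (adjusted p = 0.42 from edgeR). For Cyp8b1 (0.04 ± 0.32) and Cyp39a1 (0.09 ± 0.33) the intervals ran from -0.62 to 0.70 and from -0.60 to 0.78.

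The other genes of the pathway were taken from 4 lists of synthesis enzymes, transporters, regulators and detoxifying enzymes. Of 14 further synthesis enzymes 12 were tested. On the NPD 3 rose (Akr1d1, Acox2 and Hsd17b4) and 3 fell (Akr1c6, Cyp2c70 and Amacr), and on the HPD Acox2 rose and Akr1c6 fell, with list medians of -0.09 and -0.20. These 6 and 2 of 12 stand beside 12.6% of all genes called on the NPD and 9.89% on the HPD. Cyp2c70, which makes muricholic acids in mice, changed by -1.42 ± 0.19 on the log2 scale with Cort in NPD livers (adjusted p = 1.7e-05 from edgeR), from 410 to 485 CPM in Veh to 112 to 198 CPM in Cort. It was 0.92 ± 0.18 higher in Cort HPD than in Cort NPD (adjusted p = 0.0044 from edgeR), the only enzyme of this list that passed for diet. That is 1 of 12 tested, beside 5.88% of all genes called for diet under Cort. Akr1c6, an aldo-keto reductase, fell by 1.19 (NPD) and by 1.17 (HPD, adjusted p = 3.6e-04 and 0.0011 from edgeR). Acox2, the peroxisomal oxidase that shortens the side chain, rose by 0.85 ± 0.16 on the HPD (adjusted p = 0.0012 from edgeR).

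Of 16 further transporters 15 were tested, with 3 higher (Abcb1a, Slco1a4 and Slco2b1) and 3 lower (Abcg5, Abcg8 and Abcc3) on the NPD, and 1 higher (Abcb1a) and 4 lower (Abcg5, Abcg8, Abcc6 and Slco1a1) on the HPD. The 6 and 5 of 15 called stand beside 12.6% and 9.89% of all genes. Abcg8, which with Abcg5 forms the exporter of cholesterol into bile, measured 26.5 to 31.1 CPM in Veh NPD and 13.9 to 16.7 CPM in Cort NPD, and 27.3 to 34.5 CPM in Veh HPD and 10.1 to 16.9 CPM in Cort HPD. The decreases were significant on both diets, with log2 fold changes of -0.95 ± 0.16 and -1.19 ± 0.17 (adjusted p = 3.8e-04 and 1.1e-04 from edgeR). The drug exporter Abcb1a rose by 1.98 ± 0.38 on the NPD (adjusted p = 0.0011 from edgeR), at counts of 6 to 20 reads in Veh NPD. Under Cort, 4 transporters were lower in HPD than in NPD livers (Slco2b1 by 0.75, Slco1a1 by 0.98, Abcc6 by 0.66, and Abcb4) and Abcc3 was higher. These 5 of 15 tested stand beside 5.88% of all genes called for diet under Cort.

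Of 20 regulators 18 were tested. On the NPD Nr1i3 and S1pr2 rose, and on the HPD Nr1i3 rose and Rxra and Onecut1 fell. These 2 and 3 of 18 stand beside 12.6% and 9.89% of all genes called. For Nr1i3 and S1pr2 the Cort and Veh libraries on the NPD overlapped. Rxra was also lower in Cort HPD than in Cort NPD (-0.46 ± 0.13, adjusted p = 0.036 from edgeR), the only regulator that passed for diet. This 1 of 18 is near the 5.88% of all genes called for diet under Cort. Nr1i3 (CAR), a receptor for foreign compounds, rose by 1.11 ± 0.21 on the HPD (adjusted p = 0.0015 from edgeR). The 4 regulators Nr5a2, Fgfr4, Klb and Nr3c1 did not pass. Nr5a2 (LRH-1), which activates Cyp7a1, Cyp8b1 and Nr0b2, had log2 differences of -0.14 ± 0.15 (NPD) and -0.45 ± 0.16 (HPD, adjusted p = 0.62 and 0.085 from edgeR). Fgfr4 and its partner Klb, the receptor pair for the intestinal hormone FGF15, differed by 0.55 ± 0.21 and 0.90 ± 0.32 on the NPD (adjusted p = 0.088 and 0.074 from edgeR). On the HPD the values were -0.50 ± 0.22 for Fgfr4 and 0.30 ± 0.33 for Klb (adjusted p = 0.17 and 0.62 from edgeR). The glucocorticoid receptor Nr3c1 had log2 differences of -0.32 ± 0.16 (NPD) and -0.10 ± 0.17 (HPD, adjusted p = 0.21 and 0.77 from edgeR).

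Of 8 detoxifying enzymes 6 were tested, with 3 higher and 1 lower on the NPD and 4 higher and 1 lower on the HPD. The 4 and 5 of 6 called stand beside 12.6% and 9.89% of all genes. Cyp2b10, the best known target of CAR, measured 0.106 to 4.40 CPM in Veh NPD and 281 to 511 CPM in Cort NPD, and rose by 7.47 ± 0.59 on the log2 scale (adjusted p = 5.0e-06 from edgeR). On the HPD it measured 2.46 to 7.43 CPM in Veh and 338 to 439 CPM in Cort (6.44 ± 0.63, adjusted p = 5.7e-05 from edgeR). Its NPD fold rests on Veh counts as low as 1 read. Cyp3a11 and Ephx1 were the other enzymes higher on both diets, with Gsta3 on the HPD. Sult2a8, a bile acid sulfotransferase of mouse liver, was the enzyme that fell on both diets. It measured 272 to 421 CPM in Veh HPD and 37.4 to 125 CPM in Cort HPD, and fell by 2.31 there (SE 0.37, adjusted p = 0.0014 from edgeR). On the NPD its log2 difference was -2.42 ± 0.36 (adjusted p = 4.5e-04 from edgeR). Cyp2b10, Cyp2c70, Cyp3a11, Akr1c6, Sult2a8 and the Slco1a genes have close paralogs, so their counts are uncertain where the counting could split reads. None of the genes in the 4 lists passed in edgeR's test for diet under Veh (0.169% of all genes called) or for the interaction (0.113%).

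**Figure D4:**
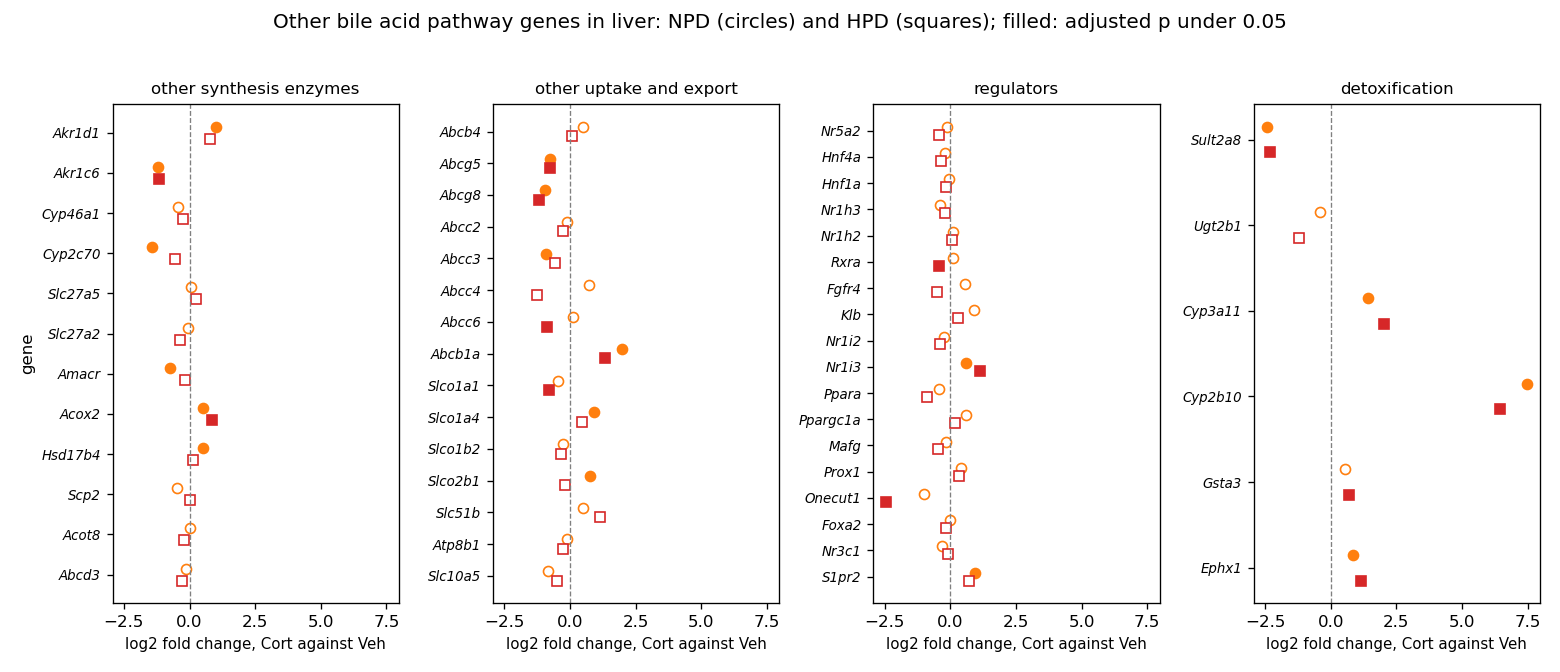
Log2 fold change of Cort against Veh (horizontal axis) in liver for the tested genes of 4 lists, on the NPD (circles) and on the HPD (squares), filled where the adjusted p was under 0.05. Cyp2b10 stands farthest to the right at 7.47 and 6.44 and Sult2a8 is among those farthest to the left, and Abcg8 and Akr1c6 are filled to the left of 0 on both diets.

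Genes of most like pattern were sought by the mean absolute difference in centred log2 CPM over the 15 liver libraries. For Cyp8b1 they were Ephx1 (0.22), Aifm2 (0.23) and Fam234b (0.23), where Cyp8b1 itself deviated from its mean by 0.64 on average. For Nr0b2 they were Nfkbia (0.21), Chkb (0.21) and Nktr (0.22), beside an average deviation of 0.44. For Cyp7a1 they were Cd36 (0.52), 1810046K07Rik (0.53) and Vwa3b (0.54), beside an average deviation of 1.26. The measure is a description over libraries that share the treatment.

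In eWAT, 3 of the 10 genes had enough counts to test, and 0 passed for Cort on the NPD (7.98% of 15187 genes called) or the HPD (6.09%), with 0 at an unadjusted p under 0.05 and 0 by DESeq2 and by limma voom. Cyp27a1 was present in all 16 libraries at 31.3 to 65.7 CPM. It averaged 43.5 ± 8.57 CPM (SD, n = 4) in Veh NPD, 37.4 ± 7.13 in Cort NPD, 49.0 ± 12.6 in Veh HPD and 56.2 ± 4.48 in Cort HPD, and its log2 difference with Cort was -0.22 ± 0.17 (NPD) and 0.19 ± 0.17 (HPD). Nr1h4 reached at most 54 reads and Cyp39a1 at most 22 reads in any eWAT library, and the log2 difference of Cyp39a1 on the NPD was -0.34 ± 1.30. The interval of Cyp39a1, -3.02 to 2.33, rests on 3 to 14 reads in Veh NPD and 0 to 14 reads in Cort NPD. So few reads cannot decide on a change of the liver's size. Slc10a1, Abcb11 and Nr0b2 had 0 counts in all 16 libraries, which allows up to 3 reads in a library. Cyp7a1, Cyp8b1, Cyp7b1 and Baat were at 0 in 15, 12, 9 and 14 libraries, with at most 4, 9, 21 and 6 reads.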

How the data were processed

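RNA was prepared as 3' tag libraries (QuantSeq), so reads come from transcript ends and gene length bears little on a count. The authors deposited raw counts per gene for 32 libraries. The submitters' processing notes name the build GRCm38 (mm10), R 4.0.3 and limma, while aligner, counter and annotation are not given in the sources used here. Of 47643 Ensembl identifiers 47224 had a symbol, from GENCODE M21 on GRCm38, and all columns were used. Promoters came from RefSeq (GRCm38.p6).

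Counts were tested per tissue with edgeR 4.0.16 (R 4.3.3), using filterByExpr (minimum count 10, total 15), TMM factors, a model of the 4 groups with robust quasi-likelihood fits, and Benjamini-Hochberg adjustment over all genes tested at 0.05. Liver fits used 15 libraries (biological coefficient of variation 0.228). Intervals are 95%. Depth was 8933307 to 17447524 reads in liver and 9794683 to 18057936 in eWAT. Replicates differed beyond counting noise in all 48 pairs (chi-squared per gene 15.3 to 207, where noise gives about 1). p-values rest on the spread within groups of 3 or 4 libraries, taken as 1 estimate shared by the 4 groups of a tissue.

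The 10 genes, the lists and the tests were chosen with earlier results of these data known. Named were all 10 genes, up to 3 genes in each direction and comparison of the other lists with the smallest p among those called without overlap, and Nr5a2, Klb, Fgfr4 and Nr3c1. Other names were added after their values were seen. Alternatives were RLE factors, library totals, DESeq2 1.42.0, limma voom 3.58.1 with and without sample quality weights, no filter, only the groups compared, a replicate block, all 16 liver libraries, and each library left out. The fits were tested on simulated data.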

Additional observations from a re-analysis of the deposited data

Results flagged for a closer look

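Of 40 groups of a gene and condition in liver, 5 held a library far from the others of its group by Dixon's criterion, which flags about 1 in 20 groups of 4 by chance. The Veh HPD groups were checked with the library set aside put back. In Veh NPD replicate 4, Cyp7b1 was low (95.6 CPM, the others 203 to 215). In Cort NPD replicate 1, Nr0b2 was high (37.9 CPM, the others 17.0 to 20.4). The remaining 3 were in Cort HPD replicate 1, where Slc10a1 (812 CPM, the others 434 to 455) and Baat (244 CPM, the others 125 to 139) were high and Nr0b2 (12 CPM, the others 15.6 to 15.9) was low. That library also had the lowest TMM factor, 0.754, and the part of the scaling in these values was not tested.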

How the results depend on the processing

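With 3 or 4 libraries a group, the spread between mice and not depth sets the precision, and Cyp7a1 and Cyp7b1 could have moved far without a call. The counts of the 10 genes called were unchanged with RLE factors, no filter and the replicate block (2 and 4 for Cort on the NPD and HPD, 0 elsewhere), and the block changed no call. Replicate numbers did not pair the libraries (median correlation of same-numbered libraries -0.02 in liver and -0.01 in eWAT). The count for Cort on the NPD was 4 with voom and quality weights (Cyp7a1 and Slc10a1 newly higher) and 1 with all 16 liver libraries, and on the HPD it was 3 with all 16 libraries and 5 with only the groups compared (Nr0b2 newly lower). Cyp7a1 was newly called higher on both diets by DESeq2 and by voom with and without quality weights. With library totals alone Nr0b2 was newly called lower for Cort on the HPD. The count for diet under Cort was 1 with library totals alone (Nr0b2). With 1 library left out at a time, the count on the HPD ranged from 2 (without Veh HPD replicate 1) to 5, and on the NPD from 2 to 3.

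Of 1190 refitted values of single genes, 1099 kept direction and side of the threshold, 16 passed it newly, 4 no longer passed and 71 changed sign, all of them of differences that were not called. With library totals alone the sign turned for Abcb11 under Cort (-0.17), Abcb11 under Veh (0.01), Cyp7b1 under Cort (-0.06), and the interactions of Abcb11 (-0.18), Cyp27a1 (-0.19), Cyp39a1 (-0.14) and Cyp8b1 (-0.15). With all 16 libraries it turned for Cort on the HPD in Abcb11 (0.02) and Cyp27a1 (0.12) and for the interactions of Cyp39a1 (-0.25), Cyp7a1 (0.03) and Nr0b2 (0.09). With voom it turned for the interactions of Cyp7a1 (0.03) and Cyp8b1 (-0.04), and with quality weights for diet under Cort in Abcb11 (-0.02) and Cyp27a1 (0.03) and the interactions of Cyp39a1 (-0.10) and Nr0b2 (0.01). The replicate block turned the interaction of Cyp27a1 (-0.00).

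Leaving out 1 library, signs turned for Cort on the NPD in Baat (-0.11 to 0.03). For diet under Veh they turned in Abcb11 (-0.12 to 0.05), Cyp27a1 (-0.15 to 0.03), Cyp7a1 (-0.39 to 1.5, lowest without Veh HPD replicate 3), Cyp8b1 (-0.32 to 0.16), Nr1h4 (-0.16 to 0.12) and Slc10a1 (-0.36 to 0.00), and for diet under Cort in Abcb11 (-0.08 to 0.16), Baat (-0.36 to 0.02), Cyp27a1 (-0.16 to 0.03) and Cyp7b1 (-0.23 to 0.42). Interactions turned in Abcb11 (-0.04 to 0.21), Cyp27a1 (-0.09 to 0.11), Cyp39a1 (-0.17 to 0.29), Cyp7a1 (-0.87 to 1.02), Cyp7b1 (-0.01 to 0.65), Cyp8b1 (-0.28 to 0.20) and Nr0b2 (-0.25 to 0.21). The cause was not tested.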
